A study of Arabidopsis thaliana with 6 samples.

Results

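Transcript counts of the genes around the centromere of Arabidopsis thaliana chromosome 3 were compared between style tissue with pollen tubes from paps1-1 plants and the same tissue from wild-type plants. The genes are all those counted with identifiers running from AT3G30718 to AT3G44100 in locus order, apart from AT3G42640 and AT3G43920, which were not analysed here. They are 804 of the 33323 genes counted. Of these 804 members, 388 had no read in any of the 6 libraries, 218 had 1 to 9 reads over all libraries together, and 198 had 10 or more and are the ones described. The stretch was selected on the fold changes of this same comparison, so the differences between genotypes are given as a description, without p-values, and nothing is read from the share of members that differ.

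The paps1-1 group holds 3 libraries of RNA from the cut part of the style with the pollen tubes that had grown into it, from plants that the labels give as paps1-1 in Col-0. The wild-type group holds 3 libraries of the same material from Col-0, the common laboratory strain. The paps1-1 allele alters PAPS1, one of the nuclear enzymes that polyadenylate new transcripts. Biological replication is stated in the labels for wild type and not for paps1-1, so the spread among the paps1-1 libraries may be technical. Plant age, growth temperature, the pollen parent and the way the allele was brought into Col-0 are not known from the labels.

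The DNA next to a plant centromere is packed into heterochromatin, which carries dense DNA methylation and silencing marks on its histones, and most of it consists of transposons and their remains with scattered genes in between. In pollen, the nucleus of the vegetative cell, which directs growth of the tube, loosens its heterochromatin, and some transposon copies are transcribed there that are silent in leaves. Gene annotation was taken from assembly TAIR10.1. It matched 779 of the 804 members and places them over 3.53 Mb. By its classes the members are 611 pseudogenes, a class that here takes in most transposon copies, 165 protein-coding genes, 2 ribosomal RNA genes and 1 non-coding RNA gene, with 25 not matched. Among the 198 with 10 or more reads, 120 are pseudogenes, 75 are protein-coding, 2 are ribosomal RNA genes and 1, AT3G30778, was not matched.

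For the 4 called protein-coding members with the largest fitted fold changes by edgeR, the 250 bases before the annotated start are shown, since the data concern how much transcript these genes gave. The fitted values of AT3G30770 and AT3G42940, which have no read in 1 genotype, depend on the model's prior count, and by limma-voom and DESeq2 AT3G32920 ranked above both. All lie on the plus strand of TAIR10.1, and the sequences are those of its RefSeq assembly. Capitals mark TATAAA, the core of the TATA box, on either strand in the first pair, and the longest run of bases that both genes share in the second pair, which are the related lipase genes described below.
AT3G30770, an aspartyl protease family gene seen only in paps1-1, chr3:12445243-12445492: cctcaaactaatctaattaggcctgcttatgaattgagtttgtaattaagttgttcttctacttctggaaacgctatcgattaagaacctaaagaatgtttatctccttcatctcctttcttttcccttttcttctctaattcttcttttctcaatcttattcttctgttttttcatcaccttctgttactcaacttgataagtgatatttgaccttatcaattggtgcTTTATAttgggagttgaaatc
AT3G42940, a RING finger gene seen only in wild type, chr3:15006363-15006612: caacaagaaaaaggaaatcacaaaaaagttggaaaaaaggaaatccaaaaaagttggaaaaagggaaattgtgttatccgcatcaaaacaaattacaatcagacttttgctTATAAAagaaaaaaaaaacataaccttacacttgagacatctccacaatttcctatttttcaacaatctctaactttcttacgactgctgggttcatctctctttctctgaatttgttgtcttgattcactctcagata
AT3G43550, a GDSL lipase gene, chr3:15448385-15448634: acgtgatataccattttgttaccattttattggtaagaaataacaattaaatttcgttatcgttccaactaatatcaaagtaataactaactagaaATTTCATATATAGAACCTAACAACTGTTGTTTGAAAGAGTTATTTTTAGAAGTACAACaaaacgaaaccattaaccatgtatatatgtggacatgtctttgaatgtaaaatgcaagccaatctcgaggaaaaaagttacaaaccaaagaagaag
AT3G43570, a GDSL lipase gene, chr3:15473095-15473344: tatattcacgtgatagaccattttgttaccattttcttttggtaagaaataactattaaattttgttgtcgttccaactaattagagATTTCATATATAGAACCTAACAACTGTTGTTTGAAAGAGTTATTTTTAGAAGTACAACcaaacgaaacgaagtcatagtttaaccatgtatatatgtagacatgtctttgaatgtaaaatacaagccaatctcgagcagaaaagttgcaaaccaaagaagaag

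The first pair each hold TATAAA once, and the lipase pair do not hold it. Over the 27443 windows of this length before protein-coding genes, 47.3% hold TATAAA on either strand. AT3G43570 also holds CACGTG, the core of the G-box, which 6.5% of the windows hold. The window of AT3G43550 starts with the letters ACGTG at the matching place, so its edge falls within the word. Whether AT3G43550 has CACGTG there cannot be read from the window. The lipase windows are identical at 219 of 268 alignment columns, or 81.7%, and the shared run is 58 bases long. These matches describe letters and say nothing of which proteins bind there.

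The libraries held 15092276, 4541233 and 18717968 reads in genes in paps1-1 replicates 1 to 3, against 21031017, 13707799 and 19288861 in wild type. Levels are CPM, a gene's reads scaled to a common library size and not corrected for gene length. In these units 3 reads correspond to 0.152 to 0.638 CPM in paps1-1 libraries and to 0.155 to 0.211 CPM in wild-type libraries. The paps1-1 replicate 2 library stood apart: 74.6% of its reads mapped to several places, and 18S ribosomal RNA took 10.5% of its gene reads, against 0.11% to 0.732% in the other 5 libraries. PAPS1 itself had 88.4, 99.4 and 59.9 CPM in paps1-1 and 143, 101 and 104 CPM in wild type, which checks little, since the allele changes the protein. All 7 pollen tube markers had reads in every library and summed to 23292 to 35274 CPM in paps1-1 and 23389 to 57977 CPM in wild type. Of 6 style markers, SPT, NGA3 and NTT had reads in every library and HEC1 and HEC2 had none, and the list summed to 27.4 to 32.3 CPM in paps1-1 and 19.4 to 29 CPM in wild type. The ovule list was at 43.2 to 59.6 CPM in paps1-1 and 33.4 to 58 CPM in wild type. The tapetum marker A9 had no read, and the sperm list was at 36.9 to 57.1 CPM in paps1-1 and 16.1 to 32.8 CPM in wild type. Nearly all of the sperm sum was DMP9, since GEX2 had no read in paps1-1 and at most 0.14 CPM in wild type. The leaf gene RBCS1A reached 254 CPM in paps1-1 replicate 3. None of the 19 markers was called, but STY1, HEC1, HEC2, A9 and GEX2 were not tested. In a mixed tissue, fewer cells of a type and less RNA per cell cannot be told apart.

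A total of 97 members had enough reads for edgeR's quasi-likelihood test, and 39 of them passed it (called below), with the limit set at 0.05 after Benjamini-Hochberg adjustment over all 18317 genes tested, where 2.34% were called. In paps1-1, 25 were higher and 14 were lower, where 1.16% and 1.18% of all tested genes were. The other 58 tested members were not called. Without paps1-1 replicate 2, 108 members were tested, 25 were called higher and 16 lower, and these included 37 of the 39. Members had to have reads in at least 1 genotype to enter the test, so these 97 are not the stretch as a whole. Elsewhere, 22 of 100 tested genes from AT1G34780 to AT1G43770 on chromosome 1, another stretch around a centromere, were called, with 7 higher and 15 lower. Among the other tested genes of chromosome 3, 122 of 3589 (3.4%) were called, and on chromosomes 2, 4 and 5 together 115 of 9820 (1.17%) were.

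The called differences were large. None of the 39 had a fitted log2 fold change under 2 in size, and 34 were at 4 or more, which is 16-fold. Leaving out the 14 called members that had no read in 1 genotype, whose fitted values depend on the model's prior count, 20 of 25 were at 4 or more. Among all called genes with reads in both genotypes, 77 of 383 (20.1%) were. The 383 include these 25, and the stretch was selected on the fold changes, so nothing is read from this difference. Called members higher in paps1-1 had a median log2 fold change of 7.53, or 5.17 with each member at 0 in wild type set to its lower bound. Those lower in paps1-1 had a median of -7.86, or -6.30 with bounds. Among the 58 members not called, 50 lay between -1 and 1, with a median of 0.06. Over all 97 the median was 0.15, and over all tested genes 0.03.

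**Figure D1:**
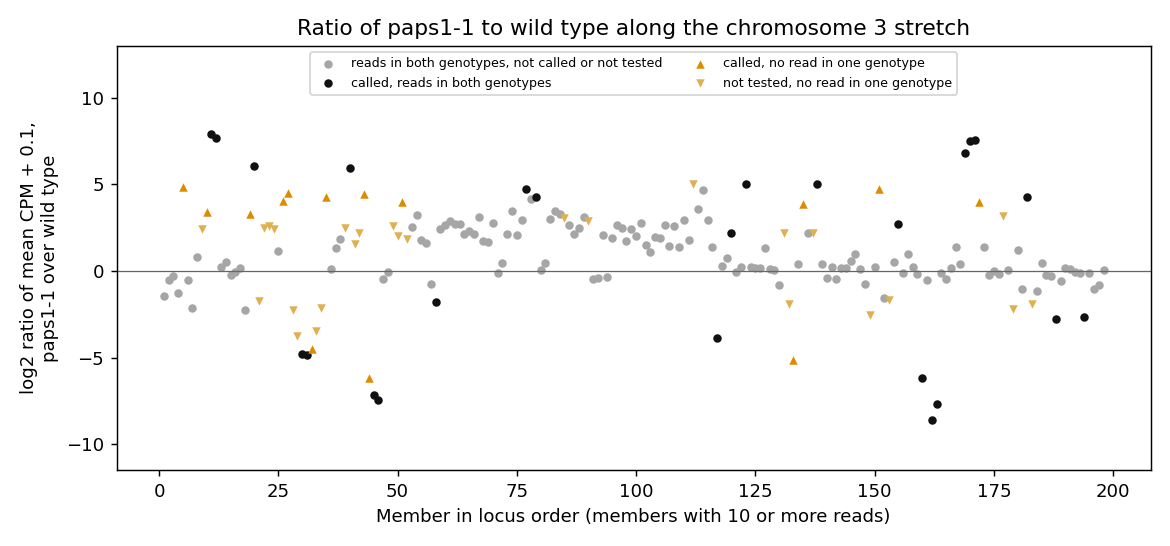
The log2 ratio of mean CPM, paps1-1 over wild type, with 0.1 CPM added to each mean, for the 198 members with 10 or more reads in locus order. Called members lie on both sides of 0 but are few in the middle, with 2 higher and 1 lower from AT3G33124 to AT3G42431. Some members that were not called, among them those with no read in 1 genotype, lie well off 0 too. In the middle, many raised grey points are members with at least 50% of their reads in paps1-1 replicate 2.

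Pseudogenes made up most of the called members. Of the 120 pseudogenes described, only 39 had enough reads for the test. Among these 39, 21 were higher in paps1-1, 9 were lower and 9 were not called. Reads in a single genotype could suffice to enter the test, so these shares do not describe pseudogenes as a whole. The called share of pseudogenes over all genes was not counted. Of the 75 protein-coding members described, 56 were tested, of which 3 were higher, 5 were lower and 48 were not called. One ribosomal RNA gene was higher and the other was not called.

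Many members had reads in only 1 genotype. Of the 198, 27 had no read in any wild-type library (13.6%, where 0.531% of all genes with 10 or more reads do), and 13 had none in any paps1-1 library (6.57%, where 0.249% do). The 27 comprised 24 pseudogenes and 3 protein-coding genes with 11 to 97 reads, and 23 of them had a read in all 3 paps1-1 libraries. The 13 comprised 10 pseudogenes and 3 protein-coding genes with 10 to 333 reads, and 12 of them had a read in all 3 wild-type libraries. Only 11 of the 27 and 3 of the 13 were called, and the rest had too few reads to be tested. The libraries of the genotypes did not overlap for 82 members: all paps1-1 libraries lay above all wild-type libraries for 48 (24.2%, where 7.15% of all genes with 10 or more reads do), and below them for 34 (17.2%, where 7.81% do). At the edge of the read limit, 8 members had exactly 10 reads, of which 2 had none in paps1-1, and 10 members had exactly 9 reads, of which 1 had none in wild type and 1 none in paps1-1.

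**Figure D2:**
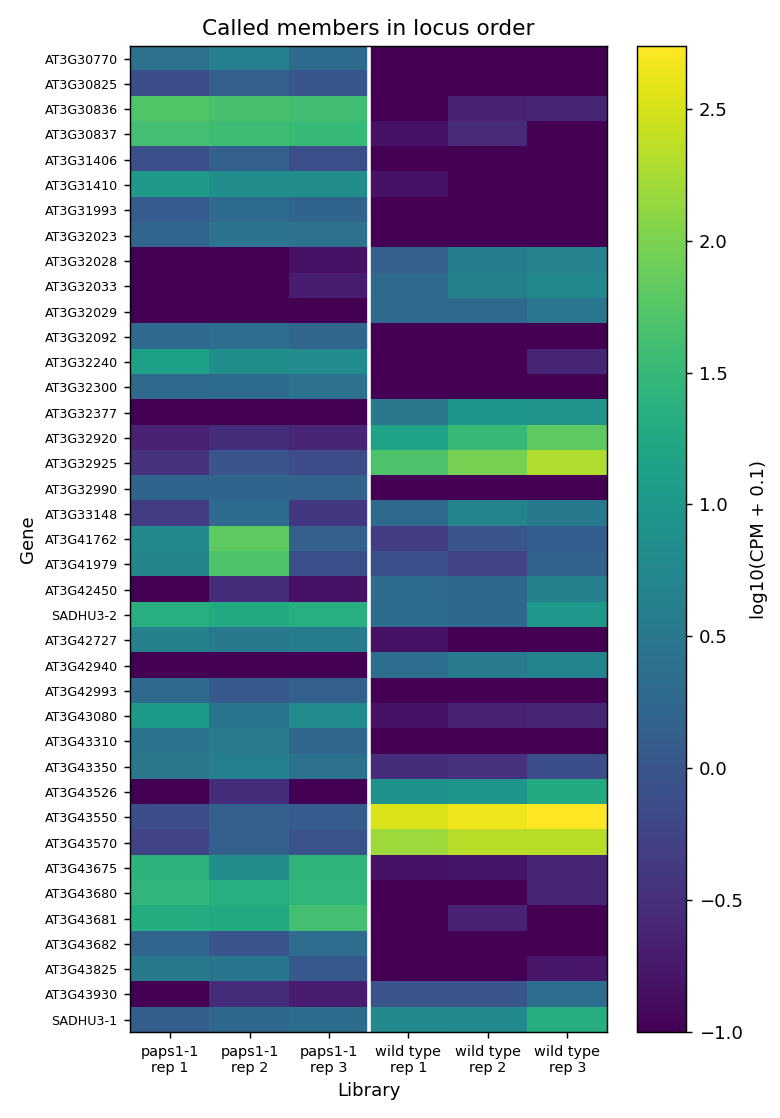
Levels of the 39 called members in each library, in locus order, as log10 of CPM + 0.1, with the 3 paps1-1 libraries on the left and the 3 wild-type libraries on the right. Rows bright on the left and dark on the right alternate along the stretch with rows of the opposite pattern, the brightest being the lipase genes AT3G43550 and AT3G43570 in wild type.

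The losses with the most reads were a pair of genes for GDSL lipases, enzymes of a large plant family that hydrolyse ester bonds of lipids and related compounds. AT3G43550 had 0.653, 1.28 and 1.11 CPM in paps1-1 replicates 1 to 3, against 331, 438 and 546 CPM in wild type. AT3G43570 had 0.475, 1.28 and 0.809 CPM in paps1-1, against 154, 214 and 220 CPM in wild type. Every paps1-1 library was far below every wild-type library, and in paps1-1 the reads numbered 6 to 22 per library. The log2 fold changes were -8.82 (SE 0.44) for AT3G43550 and -8.01 (SE 0.41) for AT3G43570. The genes lie on the same strand 23.3 kb apart. Their exons, of 1054 and 963 bases, are identical at 932 of 1054 alignment columns, or 88.4% with gaps counted as differences. In AT3G43550 64.5%, and in AT3G43570 55.8%, of exonic 50-base words occur once in the genome. Multi-mapping reads were counted in no gene, so the counts of both genes are uncertain where a read matches another copy. A further copy of both, 90.8% and 91.1% identical, lies on chromosome 1 at the locus counted as AT1G58520, which had 906, 892 and 952 CPM in paps1-1 and 954, 1050 and 1400 CPM in wild type. The remaining copies on chromosome 1, AT1G58725, AT1G59030 and AT1G59406, were listed at 0 in all 6 libraries. Since multi-mapping reads were not counted, this does not show that they were silent.

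The lipase pair did not lie in an unbroken block of losses. Before it in locus order, the pseudogene AT3G43526 had 0, 0.213 and 0 CPM in paps1-1 and 7.9, 9.16 and 19.1 CPM in wild type, a single read against 575. Its ratio of wild type to paps1-1 was 475, with an exact 95% counting interval of 85 to 18807. Between AT3G43526 and the lipases lies AT3G43540, a protein-coding gene of unknown function, which had 1.9, 1.06 and 1.77 CPM in paps1-1 and 1.55, 3.11 and 2.11 CPM in wild type and was not called. After the pair, AT3G43590, a zinc knuckle gene, had 15, 14.7 and 18.4 CPM in paps1-1 and 13.2, 17.9 and 11.2 CPM in wild type, with overlapping groups. AAO2 (AT3G43600), an aldehyde oxidase, had 1.72, 2.55 and 1.01 CPM in paps1-1 and 0.929, 0.549 and 0.351 CPM in wild type, without overlap but not called, at a log2 fold change of 1.38 (SE 0.51). It overlaps 33.8% of the exonic bases of AT3G43590 on the opposite strand, where reads cannot be told apart.

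Another strong loss joined a protein-coding gene and a pseudogene that lies within it. AT3G32920, a P-loop nucleoside triphosphate hydrolase whose annotation names DNA repair and DNA-dependent ATPase activity, had 0.119, 0.213 and 0.152 CPM in paps1-1, against 14, 32.1 and 64.6 CPM in wild type. AT3G32925, on the same strand inside its intron, had 0.237, 0.851 and 0.607 CPM in paps1-1, against 49.4, 93.5 and 199 CPM in wild type. The genotypes were far apart in both, and the wild-type libraries kept the same order in both. Log2 fold changes were -7.90 (SE 0.65) and -7.83 (SE 0.59), or -7.25 and -7.19 without wild-type replicate 3. Since AT3G32925 lies in an intron, its reads may belong to transcripts of AT3G32920, which counts per gene cannot tell apart. Only 5 bases from AT3G32920, AT3G32930, which encodes a riboflavin synthesis enzyme, had 2.85, 2.13 and 4.25 CPM in paps1-1 and 4.49, 4.52 and 3.58 CPM in wild type, with overlapping groups and no call.

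The other protein-coding losses were of low level. AT3G42940, a C3HC4 RING finger gene of the kind that often encodes ubiquitin ligases, had no read in paps1-1 and 42, 54 and 67 reads in wild type, which makes it at least 44.9-fold lower. AT3G43930, with the BRCT domain found in DNA repair proteins, had 0, 0.213 and 0.101 CPM in paps1-1 and 0.878, 0.855 and 2.11 CPM in wild type, or 3 reads against 61. The ratio of wild type to paps1-1 was 16.8 (exact 95% counting interval 5.49 to 83.8), and the call was lost without paps1-1 replicate 1 or 3 or without wild-type replicate 3. AT3G43750, another RING gene, and AT3G43291, of unknown function, also had no read in paps1-1. AT3G43750 had 5, 6 and 6 reads in wild type and AT3G43291 had 3, 11 and 9, at least 4.68-fold and 6.34-fold lower, and neither was tested.

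Their protein-coding neighbours gave other values. AT3G43740, a leucine-rich repeat gene 771 bases before AT3G43750, had 14.5, 10.2 and 14 CPM in paps1-1 and 12.8, 15.7 and 8.42 CPM in wild type. ATMIN7 (AT3G43300), an exchange factor of vesicle traffic 1736 bases from AT3G43291, had 55.1, 74.5 and 65.4 CPM in paps1-1 and 58.7, 52 and 58.5 CPM in wild type. In both the groups overlapped.

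The longest run of neighbours with less transcript in paps1-1 was 7 pseudogenes from AT3G32022 to AT3G32032, in 27.5 kb, counting members with 10 or more reads. Of these, AT3G32028, AT3G32033 and AT3G32029 were called. AT3G32028 had 0, 0 and 1 reads in paps1-1 and 25, 61 and 63 in wild type, a ratio of wild type to paps1-1 of 123 (exact 95% counting interval 21.8 to 4897). AT3G32033 had 0, 0 and 2 reads in paps1-1 and 35, 67 and 79 in wild type, a ratio of 74.8 (20.4 to 622). AT3G32029 had no read in paps1-1 and 35, 30 and 40 in wild type, at least 28.9-fold lower.

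The remaining 4 of the run had no read in paps1-1 and a read in every wild-type library, and were too low for the test. AT3G32022 had 5, 6 and 7 reads in wild type, AT3G32027 had 5, 28 and 26, AT3G32031 had 5, 17 and 24, and AT3G32032 had 1, 2 and 12. Lower bounds of the decrease ran between 4.13-fold for AT3G32032 and 16.3-fold for AT3G32027.

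The run was flanked by members of the opposite pattern. AT3G32023, whose end lies 8.6 kb before AT3G32022, had 26, 12 and 49 reads in paps1-1 and none in wild type, at least 35.1-fold higher. AT3G31993, before it, had 19, 9 and 30 reads in paps1-1 and none in wild type, at least 23.4-fold higher. Past the run, 57.6 kb on, AT3G32092 had 30, 10 and 32 reads in paps1-1 and none in wild type, at least 29-fold higher.

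**Figure D3:**
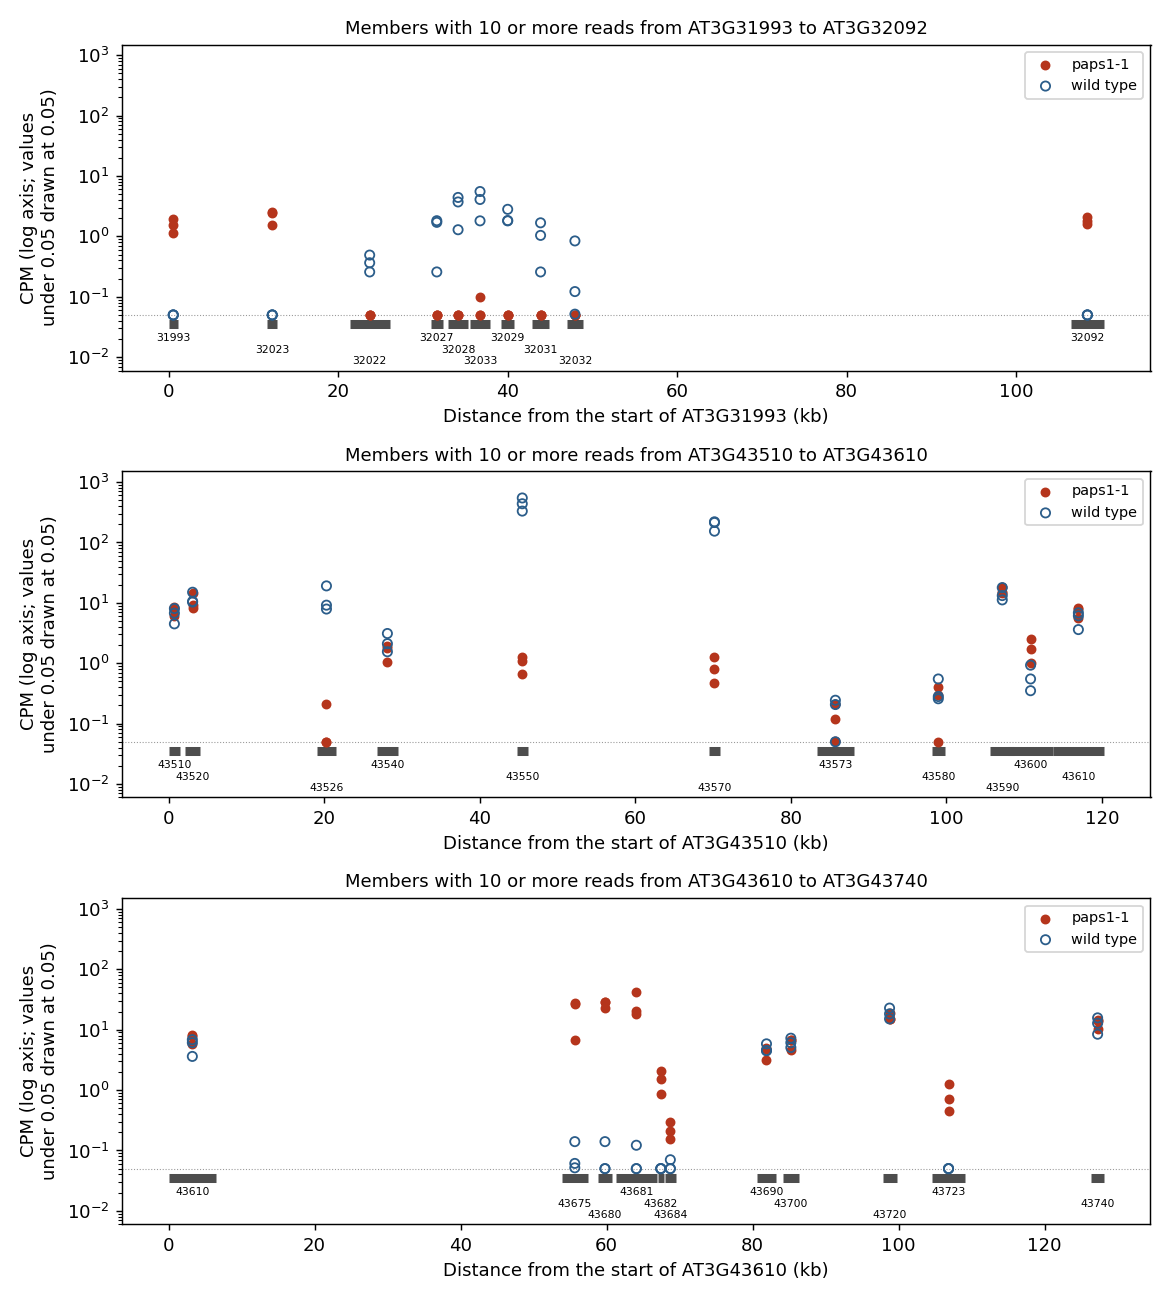
CPM of each library on a log axis for neighbouring members with 10 or more reads, at their distance in kb from the first member of each panel; filled points are paps1-1, open points wild type, bars mark the genes, numbers are the last 5 digits of the identifiers, and values under 0.05 CPM are drawn at 0.05. The top panel shows 7 neighbours low in paps1-1 between members seen only in paps1-1. The middle panel shows the lipase pair with its neighbours, among them AT3G43526, also low in paps1-1, and AAO2 (AT3G43600), higher there without overlap. The bottom panel shows the 4 high neighbours from AT3G43675 to AT3G43682.

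The strongest run of gains was a block of 4 neighbours in 14 kb, AT3G43675 to AT3G43682, all called. AT3G43675, a pseudogene, had 26.2, 6.81 and 28.2 CPM in paps1-1, against 0.0516, 0.061 and 0.14 CPM in wild type. AT3G43680, a pseudogene, had 28.9, 22.8 and 28.6 CPM in paps1-1, against 0, 0 and 0.14 CPM in wild type. AT3G43681, a pseudogene, had 20.5, 18.3 and 41.7 CPM in paps1-1, against 0, 0.122 and 0 CPM in wild type. Wild type thus held 4, 2 and 2 reads of these genes in all, and the paps1-1 to wild type ratios were 311 (exact 95% counting interval 121 to 1145), 702 (194 to 5800) and 759 (210 to 6275). The fourth, AT3G43682, a protein-coding gene of unknown function, had 26, 4 and 41 reads in paps1-1 and none in wild type, at least 28.6-fold higher. On either side of the block the nearest well-covered genes overlapped between genotypes: AT3G43610 had 7.83, 8.3 and 5.71 CPM in paps1-1 and 3.61, 6.84 and 6.11 CPM in wild type, and AT3G43690, a pseudogene 12.8 kb after AT3G43682, had 3.2, 4.89 and 4.7 CPM in paps1-1 and 4.49, 4.52 and 5.83 CPM in wild type.

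At the start of the stretch, a pair of pseudogenes 245 bases apart showed the same pattern. AT3G30836 had 52.9, 43.8 and 38.3 CPM in paps1-1, against 0, 0.122 and 0.14 CPM in wild type, a ratio of 561 (exact 95% counting interval 219 to 2060). AT3G30837 had 41.8, 37.7 and 31.7 CPM in paps1-1, against 0.0516, 0.183 and 0 CPM in wild type, a ratio of 456 (178 to 1676). In both, the paps1-1 libraries lay close together and wild type held 4 reads. Before them in locus order, AT3G30820, a protein-coding gene annotated as a retrotransposon protein, and AT3G30825, a pseudogene, had no read in wild type. AT3G30820 had 13, 0 and 11 reads in paps1-1 and AT3G30825 had 11, 6 and 18, at least 9.68-fold and 14.1-fold higher, and AT3G30825 was called.

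AT3G30770 was the called protein-coding gain with the most reads among those absent from wild type. This aspartyl protease family gene had 40, 19 and 38 reads in paps1-1 and none in wild type, at least 39.1-fold higher, and all of its exonic 50-base words are unique in the genome. Right after it, 350 bases on, ERD5 (AT3G30775), the mitochondrial enzyme that begins proline breakdown, had 303, 318 and 361 CPM in paps1-1 and 486, 263 and 662 CPM in wild type, with overlapping groups and no call.

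Of the other called gains, 6 were pseudogenes with a few wild-type reads. AT3G31410 had 9.97, 6.6 and 6.98 CPM in paps1-1 against 0.0516, 0 and 0 CPM in wild type, a single read, and a ratio of 408 (exact 95% counting interval 72.7 to 16148). AT3G32240 had 13.2, 7.23 and 6.22 CPM in paps1-1 against 0, 0 and 0.14 CPM in wild type, a ratio of 230 (63.2 to 1905). AT3G43080 had 10.7, 2.77 and 6.42 CPM in paps1-1 against 0.0516, 0.122 and 0.14 CPM in wild type, a ratio of 77.4 (32.8 to 240). The groups were apart in all of these, as they were for AT3G42727, which had 4.27, 3.19 and 3.59 CPM in paps1-1 against 0.0516, 0 and 0 CPM in wild type, a ratio of 191 (33.8 to 7596). AT3G43825 had 3.09, 2.77 and 0.961 CPM in paps1-1 against 0, 0 and 0.0702 CPM in wild type, a ratio of 102 (17.7 to 4061). AT3G43350, like AT3G43080, had reads in every library, at 2.91, 4.04 and 2.38 CPM in paps1-1 and 0.207, 0.244 and 0.702 CPM in wild type. Its log2 fold change was 3.00 (SE 0.50), or 3.66 without wild-type replicate 3, and only 52.9% of its exonic 50-base words are unique.

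A further 5 called pseudogenes were absent from wild type. AT3G43310, annotated as a pseudogene of a myosin heavy chain-like protein, had 44, 16 and 32 reads in paps1-1, at least 37.1-fold higher. AT3G32300 had 31, 9 and 49 reads (at least 35.9-fold), and AT3G32990 had 25, 7 and 29 (at least 24.6-fold). In these 3 members every paps1-1 library had 7 reads or more. AT3G42993 had 30, 5 and 26 reads in paps1-1 (at least 24.6-fold), and AT3G31406, next to AT3G31410, had 12, 6 and 14 (at least 12.9-fold).

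The 15 untested pseudogenes without a wild-type read were low. Outside the middle of the stretch they were AT3G31470, AT3G31530, AT3G31940, AT3G32230, AT3G32290, AT3G32295, AT3G32964, AT3G32966, AT3G33009, AT3G42886, AT3G43000 and AT3G43723. The highest of these was AT3G43723, with 12, 6 and 9 reads in paps1-1, at least 10.9-fold higher, and the lowest bounds were 4.44-fold for AT3G32290, AT3G32966 and AT3G33009. Of the 12, AT3G32290 and AT3G43000 had no read in paps1-1 replicate 2, and the others had a read in each paps1-1 library. AT3G32230, AT3G32240, AT3G32290, AT3G32295 and AT3G32300 follow each other among members with 10 or more reads and form a run of 5 gains in 47.2 kb.

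Among losses, 3 further called pseudogenes and 4 untested ones remain. AT3G32377, annotated as a pseudogene of a reticulon, a family that shapes the endoplasmic reticulum, had no read in paps1-1 and 56, 150 and 127 reads in wild type, at least 91.8-fold lower. AT3G42450 had 0, 1 and 1 reads in paps1-1 and 38, 27 and 60 in wild type, a wild type to paps1-1 ratio of 51.7 (exact 95% counting interval 14 to 431). AT3G33148 had 0.858 ± 0.916 CPM in paps1-1 and 3.24 ± 1.51 CPM in wild type (SD, n = 3 each), with overlapping groups, a log2 fold change of -2.42 (SE 0.60), or -3.29 without paps1-1 replicate 2, and no call without paps1-1 replicate 1, paps1-1 replicate 3, wild-type replicate 2 or wild-type replicate 3. The untested ones had no read in paps1-1. AT3G31420 had 0, 1 and 9 reads in wild type, AT3G42910 had 7, 5 and 2, AT3G43320 had 1, 2 and 7, and AT3G43832, a peptidase pseudogene, had 3, 6 and 4, with bounds of 2.76-fold to 3.86-fold. AT3G43832 lies 7.6 kb after the gain AT3G43825, and AT3G43320 lies 7.7 kb after the gain AT3G43310.

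Gains and losses were interleaved. Taking the 65 members that were called or had reads in only 1 genotype, 41 were higher in paps1-1, 16 of them not tested, and 24 were lower, 10 of them not tested. How many of all genes meet this rule was not counted. Among the 198 in locus order the 65 formed 12 runs of at least 2 neighbours in the same direction, the longest being the 7 losses from AT3G32022. The neighbours AT3G32300, called higher, and AT3G32377, called lower, are an example of a change of direction with no other member of 10 or more reads in between.

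A pair of SADHU elements moved in opposite directions. Sadhu elements are non-coding retroelements of Arabidopsis, and some copies are methylated and silent in some natural accessions and expressed in others. SADHU3-2 (AT3G42658) had 22.7, 18.9 and 21.7 CPM in paps1-1, against 2.01, 1.71 and 9.62 CPM in wild type, a log2 fold change of 2.28 (SE 0.48). SADHU3-1 (AT3G44042) had 1.25, 1.7 and 2.02 CPM in paps1-1, against 5.68, 5.92 and 21.5 CPM in wild type, a log2 fold change of -2.72 (SE 0.49). The groups did not overlap in either, and wild-type replicate 3 was the highest wild-type library in both. Without wild-type replicate 3 the log2 fold changes were 3.47 for SADHU3-2 and -1.83 for SADHU3-1, both still called. The call of SADHU3-2 was lost without wild-type replicate 2, at a log2 fold change of 1.88, and by DESeq2.

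Wild-type replicates differed among themselves in the lost members. Of the 14 lower members, 12 were lowest within wild type in replicate 1 and 12 were highest in replicate 3. How often this holds over all genes was not counted. Summed CPM of pollen tube markers in wild type was 45069, 23389 and 57977 in replicates 1 to 3, so replicate 3 was highest there too while replicate 2 was lowest. Most of this sum was VGD1, at 41237, 20582 and 52270 CPM. ANX1, ANX2 and MYB101 were also lowest in replicate 2 and highest in replicate 3. MYB97 was lowest in replicate 2 and highest in replicate 1, and TIP1;3 and TIP5;1 were lowest in replicate 1 and highest in replicate 2. The part of pollen content in these differences was not tested.

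A different pattern held the middle of the stretch, from AT3G33124 to AT3G42431, over 649.4 kb, whose limits were set after the values were seen. It has 64 members with 10 or more reads, 51 of them pseudogenes. In 46 of the 64, at least 50% of all reads came from paps1-1 replicate 2, and in none of the 134 members outside. The 46 had a median of 20.5 reads over all libraries and a lowest of 10. Reads of replicate 2 count towards the minimum of 10, so a member could enter through that library. The shares and sums given here are therefore a description of members partly selected on it. The median share of reads from that library was 58.3% inside and 4.68% outside. The summed level of the 51 pseudogenes was 20.9, 158 and 9.1 CPM in paps1-1 and 11.1, 20.8 and 24.2 CPM in wild type, so replicate 2 stood above the other 5 libraries, which overlapped. In reads these sums were 353, 744 and 180 in paps1-1 and 215, 341 and 345 in wild type. Of the 13 members tested there, 2 were called higher and 1 lower, against 23 and 13 of 84 outside. The same library had 9.93% of its reads outside genes, against 2.71% to 4.95% in the others, and the highest shares of multi-mapping reads and 18S RNA, whose part in this pattern was not tested.

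**Figure D4:**
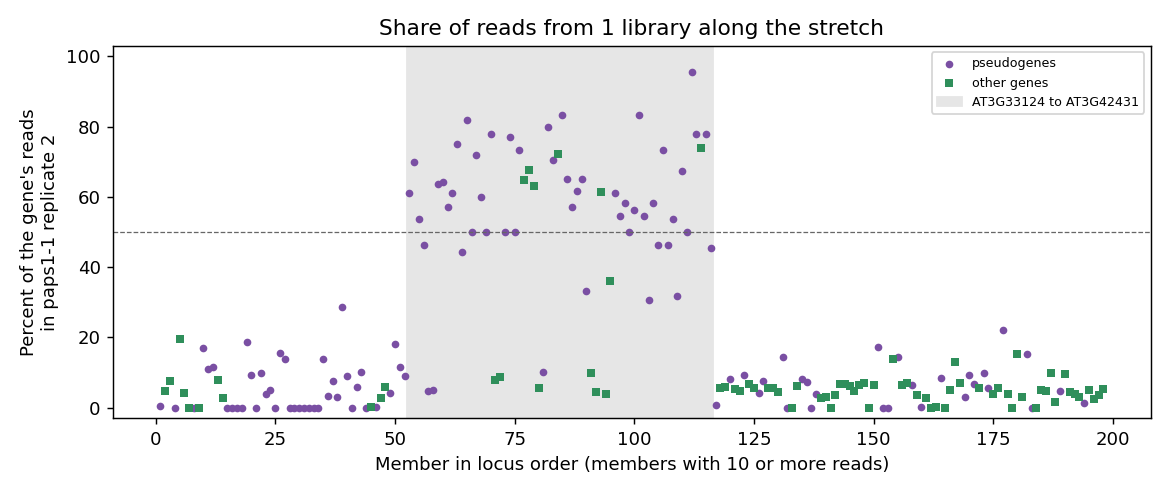
Percent of each member's reads that came from paps1-1 replicate 2, for the 198 members with 10 or more reads in locus order, pseudogenes as circles and other genes as squares; the shaded band runs from AT3G33124 to AT3G42431 and the dashed line marks 50%. All 46 points at or above the line lie in the band, and every member outside it is below the line.

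The called gains in this middle section rested on that library. AT3G41762, a protein-coding gene of unknown function beside the 18S gene, had 5.87, 64.3 and 1.31 CPM in paps1-1 and 0.361, 0.855 and 1.19 CPM in wild type. AT3G41979, the 5.8S ribosomal RNA gene, had 4.98, 51.1 and 0.708 CPM in paps1-1 and 0.723, 0.488 and 1.47 CPM in wild type, and AT3G41768, the 18S gene, had 6559, 101116 and 1120 CPM in paps1-1 and 1192, 1175 and 3591 CPM in wild type. The groups overlapped in both ribosomal RNA genes. The 18S gene, at a log2 fold change of 4.19 (SE 1.15), was not called, but it was without the filter on low counts (4.15), without paps1-1 replicate 1 (4.68) and without paps1-1 replicate 3 (4.76), and without paps1-1 replicate 2 it was at 0.94 and not called. Log2 fold changes were 4.83 (SE 1.04) for AT3G41762 and 4.31 (SE 1.04) for AT3G41979, and without paps1-1 replicate 2 they were 2.16 and 1.65 and no longer called. None of the 50-base words of AT3G41979 and 32.5% of those of AT3G41762 are unique in the genome. Multi-mapping reads were counted in no gene, so reads of these genes that match several places are missing from their counts. Of the exonic bases of AT3G41762, 42.1% overlap other annotated genes. AT3G42258, a pseudogene with 2, 44 and 0 reads in paps1-1 and none in wild type, and AT3G42083, with 1, 10 and 1 reads in paps1-1 and none in wild type, had the same shape, and AT3G42120 had 9, 6 and 3 reads in paps1-1 and none in wild type. AT3G42310, of unknown function, had 7.36, 117 and 0.0506 CPM in paps1-1 and 0.0516, 2.26 and 2.32 CPM in wild type and was not called, although its log2 fold change was 4.74 (SE 1.37).

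Of the protein-coding members, enzymes of the cell wall, lipids and sugars were called only through the lipases: of 11 tested, 0 were higher, 2 were lower and 9 were not called, with a median log2 fold change of 0.06. GH9A4 (AT3G43860), a glycosyl hydrolase of the family that holds plant cellulases, averaged 3331 ± 393 CPM in paps1-1 and 3967 ± 1803 CPM in wild type (SD, n = 3 each), with a log2 fold change of -0.25 (SE 0.39). AT3G42850, a galactokinase family gene, averaged 302 ± 5.22 CPM in paps1-1 and 276 ± 77.4 CPM in wild type (SD, n = 3 each). For both, the difference was smaller than the spread in wild type. AT3G44070, a family 35 glycosyl hydrolase, had 23.3, 19.6 and 19.9 CPM in paps1-1 and 27.4, 26.9 and 54.5 CPM in wild type, without overlap but not called.

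Genes of signalling and protein turnover included 13 tested members, of which 1 was higher, 1 was lower and 11 were not called. Calmodulin CAM7 (AT3G43810), a calcium sensor, averaged 142 ± 13.7 CPM in paps1-1 and 288 ± 54.4 CPM in wild type (SD, n = 3 each). All paps1-1 libraries lay below all wild-type libraries, and the log2 fold change was -1.02 (SE 0.27), which was not called here but was by DESeq2, without the filter on low counts and without wild-type replicate 2. The pollen receptor-like kinase PRK3 (AT3G42880) averaged 78.6 ± 16.7 CPM in paps1-1 and 136 ± 44.9 CPM in wild type (SD, n = 3 each), again without overlap, with a log2 fold change of -0.80 (SE 0.29). JAZ11 (AT3G43440), of the family that represses jasmonate response, had 7.24, 7.02 and 6.57 CPM in paps1-1 and 3.46, 4.52 and 2.53 CPM in wild type, without overlap, at a log2 fold change of 0.98 (SE 0.29), not called. AT3G43120, of the auxin-responsive SAUR family, averaged 349 ± 111 CPM in paps1-1 and 459 ± 132 CPM in wild type (SD, n = 3 each), with overlapping groups.

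Genes of nucleic acids and chromatin included 15 tested members, of which 0 were higher, 2 were lower and 13 were not called, the losses being AT3G32920 and AT3G43930. The 13 lay between -0.31 and 0.78 on the log2 scale. ARP6 (AT3G33520), a subunit of the complex that places the histone variant H2A.Z, had 2.73, 4.26 and 2.53 CPM in paps1-1 and 2.27, 2.75 and 1.82 CPM in wild type. DAYSLEEPER (AT3G42170), a protein derived from a hAT transposase, had 15.8, 13.8 and 17.1 CPM in paps1-1 and 23, 17.2 and 18.3 CPM in wild type, just without overlap, with a log2 fold change of -0.31 (SE 0.24). CHR38 (AT3G42670), also known as CLASSY1, which helps direct DNA methylation by small RNAs, averaged 1.29 ± 0.255 CPM in paps1-1 and 1.08 ± 0.599 CPM in wild type (SD, n = 3 each). AT3G44010, a small-subunit ribosomal protein, averaged 137 ± 42.1 CPM in paps1-1 and 144 ± 22.4 CPM in wild type (SD, n = 3 each).

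The 5 tested genes for proline, redox and transport and the 3 for the cytoskeleton held no called member. AT3G42050, a subunit of the vacuolar proton pump, averaged 84.4 ± 4.54 CPM in paps1-1 and 80.2 ± 10.3 CPM in wild type (SD, n = 3 each), and AT3G44050, a kinesin-like motor, averaged 152 ± 17.7 CPM in paps1-1 and 168 ± 58.3 CPM in wild type (SD, n = 3 each). Of 9 tested uncharacterised genes, 2 were higher, AT3G41762 and AT3G43682, and 7 were not called. Among these was QQS (AT3G30720), an orphan gene linked to starch content, with 1.19, 1.92 and 2.07 CPM in paps1-1 and 2.17, 2.2 and 3.23 CPM in wild type and a log2 fold change of -0.57 (SE 0.37).

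The called members held more repeated sequence than the uncalled ones. A median of 86.3% of exonic 50-base words was unique in the genome for members called higher, 93.7% for those called lower and 100% for those tested and not called. A copy elsewhere in the genome, at 80% identity or more over at least 50% of the gene, was found for 18 of 25 members called higher, 8 of 14 called lower and 5 of 58 not called. Unique words of 90% or more were found for 11 of the 25, among them AT3G30770, AT3G32240, AT3G43675 and AT3G43680. The groups also differ in kind, since pseudogenes are 21 of the 25 members called higher, 9 of the 14 called lower and 9 of the 58 not called. The part of uncounted multi-mapping reads and of reads mapped to the wrong copy in the calls was not tested.

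**Figure D5:**
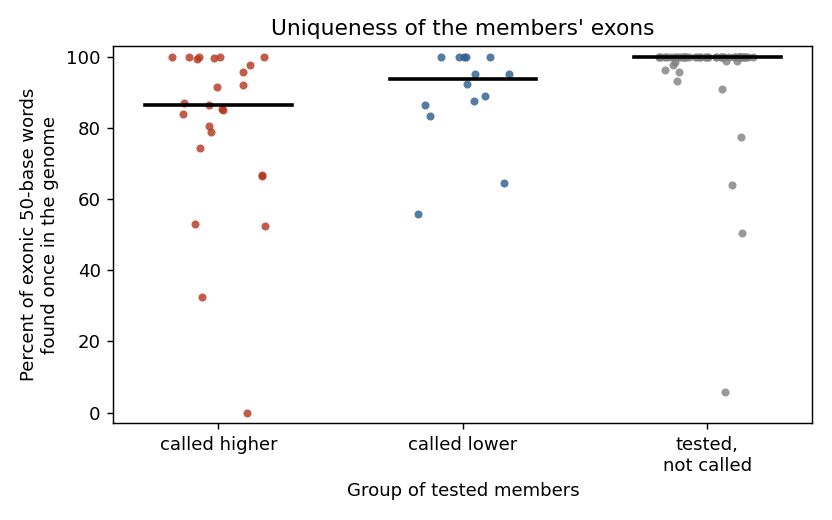
Percent of 50-base words in each tested member's exons that occur once in the genome, by call in paps1-1 over wild type; points are members and bars are medians. Medians are 86.3% for members called higher, 93.7% for those called lower and 100% for those not called.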

How the data were processed

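Deposited counts of reads per gene, with strand ignored, were used; the authors made them with STAR on TAIR10, per the submitters' processing notes, and the STAR version and the annotation were not given in the sources used here. Per the labels' protocols, RNA was isolated with the PicoPure kit, treated with DNase, made into mRNA libraries and sequenced on an Illumina HiSeq2000. Reads assigned to no gene stayed out of library sizes: 7.75% to 74.6% of all reads in paps1-1 and 7.28% to 15.1% in wild type were multi-mapping.

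Genes passing filterByExpr at a minimum count of 10 were tested with edgeR 4.0.16 (TMM factors, glmQLFit and glmQLFTest, two-sided, R 4.3.3); paps1-1 over wild type is the direction of every fold change unless stated. SE is the fold change divided by the root of the F statistic. On simulated paps1-1 and wild-type counts of 18073 genes the test recovered 36% of 2-fold and 100% of 4-fold changes, with 7 false among 143 calls. Changes were put only into better-covered genes, and every gene had the same spread between replicates. The unusual content of paps1-1 replicate 2 was not simulated. These rates therefore do not carry over to the many members of low level. Genes with no read in a genotype have a bound against 3 reads over the group, and those with 1 to 10 reads an exact interval; these cover counting error only, since reads are not independent molecules. Annotation, distances and sequences are from TAIR10.1, of a later release than the build of the counts; the deposited rows run in the order of its starts, with 17 of 6612 chromosome 3 genes against it and 0 among the members. AT3G36659 has an identifier in the range but lies elsewhere and was left out. Genome copies were found with blastn 2.17.0.

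The members, lists and named genes were chosen with earlier results of these data known. Named are all called members, all with 10 or more reads and none in 1 genotype, the 10 with the highest wild-type CPM not called, and members of role lists; neighbours were added for where they lie. Alternatives were other scaling factors, DESeq2 1.42.0, limma-voom (limma 3.58.1), testing without a filter or only genes at 5 CPM in 3 libraries, counts of 1 strand, a read minimum of 20, the replicate number as a block, and libraries left out.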

Additional observations from a re-analysis of the deposited data

How the results depend on the processing

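All 39 calls among the members were also made with RLE or upper-quartile factors, with TMM factors from chromosomes 2, 4 and 5, with no filter and with the replicate number as a block. Filtering moved the counts most: with no filter 1042 genes were called, 61 members higher and 22 lower, and with at least 5 CPM in 3 libraries 216 genes, 8 members higher and 6 lower, because 25 of the 39 were then not tested. With wild-type replicate 3 and paps1-1 replicate 2 both left out, 237 genes were called, and AT3G30825, AT3G31406, AT3G41762, AT3G41979 and AT3G43930 were not among them. With the counts of 1 strand, 340 genes were called, 19 members higher and 10 lower; these kept 29 of the 39, 9 others were not tested, and AT3G33148 was at -1.66 and not called. DESeq2 called 620 genes. With a read minimum of 20 in place of 10, 24 members in place of 40 had no read in 1 genotype. Leaving out 1 library gave 333 to 456 called genes, 23 to 28 members higher and 12 to 16 lower, and 33 to 49 members with no read in 1 genotype. AT3G41762 and AT3G41979 also lost their calls by limma-voom and without wild-type replicate 2 or 3, and AT3G41979 by DESeq2 and without wild-type replicate 1. Some members that were not called changed sign near 0: with 1 library left out, log2 fold changes ran over -0.01 to 0.15 for AT3G42050, -0.02 to 0.35 for AT3G42850, -0.47 to 0.15 for AT3G43860, -0.31 to 0.15 for AT3G44050 and -0.35 to 0.07 for AT3G44010, and with wild-type replicate 3 and paps1-1 replicate 2 both left out they were 0.17 for AT3G43860 and 0.14 for AT3G44050. The cause of these changes was not tested. With the replicate block 482 genes were called, 26 members higher and 14 lower. Libraries of the same number correlated at -0.256, 0.126 and -0.151 in their deviations from the genotype means. With 3 libraries per genotype these values cannot show whether the numbers pair the samples, and the labels state no pairing. In paps1-1 replicate 2, 3 reads correspond to 0.638 CPM, so absence there is less certain than elsewhere.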
